A study of Mus musculus with 17 samples.

Results

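V1 interneurons of the embryonic mouse spinal cord were compared with dI4 interneurons of the same embryonic age, E12.5, over 20674 genes measured on 6 of the 17 arrays of the series. All 6 arrays with these labels were used, and each of the 20674 genes named by a single symbol was represented by its brightest probe set. V1 cells came from En1-Cre; Rosa.lsl.YFP embryos and dI4 cells, which the labels call dI4/dILA, from Ptf1a-Cre; Rosa.lsl.YFP embryos, with 3 arrays labelled as biological replicates in each class. Both lines carry a Cre recombinase and a YFP reporter that stays on in a cell and its daughters once Cre has acted, so the sort collects the history of En1 or Ptf1a expression rather than its present level. The labels name no treatment, and how many embryos were pooled for each array is not stated there. Labelled cells were purified by flow sorting and a few nanograms of RNA were amplified before hybridization to Affymetrix mouse expression arrays. P-values measure the spread between the labelled replicates.

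V1 neurons are born in the ventral cord from progenitors of the p1 domain, switch on the homeobox gene En1 as they leave the cell cycle, and become inhibitory neurons that contact motor neurons and other local circuits. The dI4 neurons and the later-born dILA neurons arise from dorsal progenitors, depend on the transcription factor Ptf1a, and become GABA-releasing neurons of the dorsal horn. Newborn neurons of both kinds stop dividing, shut down the Notch-controlled progenitor program, read their position from Hox genes, send out axons under the guidance of netrins, Slits, semaphorins and ephrins, and then assemble synapses and ion channels.

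Values are log2 expression, so a difference of 1 is a 2-fold difference, and differences are V1 minus dI4 with the standard error of limma's moderated fit (n = 3 arrays per class). A gene was tested if it lay above the array median on at least 3 of the 6 arrays, which 10714 genes did. A gene bright in only one class passes this filter through that class, so list members that passed are not the whole list. Probe sets for bacterial RNA, which served as a background level, lay between 1.73 and 2.82, and a gene at or below the highest of them on all arrays of a class is described as at the control level. For such a gene the fold is a lower bound, taken between the brighter class's mean and the highest control reading. The same bound is used where the dimmer class's mean, but not each of its arrays, is at that level. In bulk RNA of sorted cells, fewer cells of a kind and less RNA per cell cannot be told apart.

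One array stood apart. Array medians lay between 3.12 and 3.23, and V1 replicates correlated at 0.986 to 0.987 across genes, as did dI4 replicates 1 and 3 (0.987). The dI4 replicate 2 array correlated at 0.972 with dI4 replicate 1 and at 0.968 with dI4 replicate 3. It differed 2-fold from them in 900 and 1120 genes, against 433 between those replicates. Its mean over 28 tested cell cycle genes was 6.02, beside 7.95 and 7.77 on the other dI4 arrays and 5.49 to 5.74 on the V1 arrays. Xist, the RNA that silences an X chromosome in female cells, read 2.67 on dI4 replicate 2 and 12.40 to 13.54 on the other 5 arrays, while the Y-linked gene Kdm5d was at the control level on V1 replicate 2 alone (2.00, against 8.58 to 10.53). V1 replicate 1 held collagen RNA of connective tissue: Col3a1 read 10.76, 3.92 and 5.71 on the V1 arrays and 2.51 to 3.34 on the dI4 arrays. Among 26 markers of blood, vessel, connective tissue and microglia on the array, 14 were at the control level on all 6 arrays, among them Pecam1 of endothelium and Hba-a1 of red cells. The mean of the 5 that passed the filter was 9.66 on V1 replicate 1, 5.96 and 6.01 on the other V1 arrays, and 5.60 to 5.92 on the dI4 arrays. The part of these arrays' differences in the results below was not tested. Values without dI4 replicate 2 are given because it stood apart in these same data. Where it lay toward V1, leaving it out widens the difference. Calls gained that way are a description and not separate support.

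**Figure D1:**
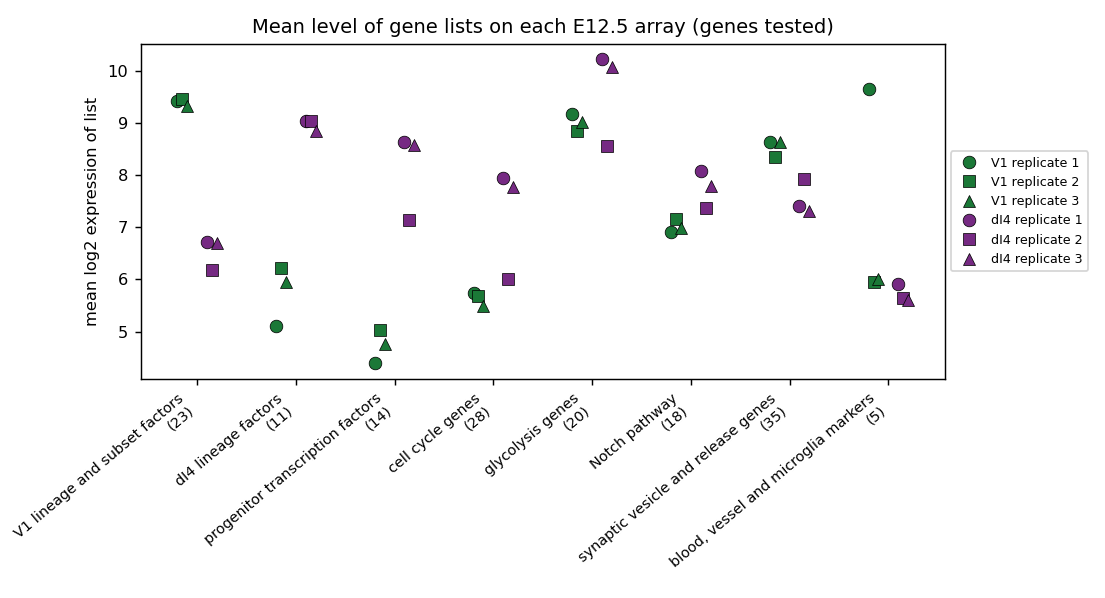
Mean log2 expression (y axis) of the tested members of 8 gene lists (x axis, number tested in brackets) on each E12.5 array, V1 in green and dI4 in purple, one marker shape per replicate. The dI4 replicate 2 square lies at 8.55 for glycolysis genes, below the V1 arrays, and the V1 replicate 1 circle lies at 9.66 for the blood and vessel markers.

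With an adjusted p under 0.05 taken as a call, 370 genes were higher in V1 (3.45% of those tested) and 185 were lower (1.73%). Of these, 297 and 139 differed at least 2-fold. The median difference over all tested genes was 0.02, with 5625 genes above 0 and 5089 below. All V1 arrays lay above all dI4 arrays in 18.2% of tested genes and below them in 14.9%. These shares are the background for the list counts below with all arrays. Without dI4 replicate 2 the counts rose to 973 higher (9.08%) and 603 lower (5.63%), the background for list counts given below without that array. Leaving out any other single array gave fewer calls, and list counts for those fits are not given below. For V1 replicates 1, 2 and 3 left out in turn the counts were 92, 240 and 102 higher and 54, 106 and 51 lower, and for dI4 replicates 1 and 3 they were 113 and 127 higher and 53 and 67 lower. All 555 called genes kept the sign of their difference in each of these 6 fits, which share most arrays with the main fit. Fewer kept their call: 139, 282 and 143 without V1 replicates 1, 2 and 3. Without dI4 replicates 1, 2 and 3 the call was kept by 158, 547 and 185.

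The transcription factors that define the classes separated the arrays. En1 (Entrez gene 13798), the gene whose Cre marks V1 cells, read 8.29, 8.61 and 7.69 on the V1 arrays and 3.19, 3.09 and 3.21 on the dI4 arrays. The difference was 5.03 ± 0.24 (adjusted p = 0.000648), and the classes did not overlap. Ptf1a (Entrez gene 19213), whose Cre marks dI4 cells, was at the control level on all 6 arrays, between 2.16 and 2.24, so it gave no check of the dI4 label. Lbx1 (Entrez gene 16814), a homeobox factor of dorsal interneurons, read 2.27, 2.52 and 2.88 in V1 and 9.30, 9.0 and 8.86 in dI4. With 2 of 3 V1 arrays and their mean at the control level, it was at least 75.0-fold higher in dI4 (adjusted p = 0.000178). The dI4 label was therefore read from Lbx1, Tfap2a, Tfap2b and Gbx1, which were all bright on the 3 dI4 arrays and called lower in V1.

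Of 23 tested factors of the V1 lineage and its subsets, 14 were higher in V1 and 2 were lower, with a median difference of 3.21. This list includes factors picked in earlier work on V1 cells, so its direction is not independent evidence. Lmo3, a LIM-domain cofactor, read 11.16, 10.83 and 10.97 in V1 against 3.36, 4.38 and 2.98 in dI4, a difference of 7.42 ± 0.36 (adjusted p = 0.000694). Nr5a2, an orphan nuclear receptor, read 9.19, 8.75 and 8.60 in V1 and was at the control level on every dI4 array, which makes its V1 level at least 65.0-fold higher (adjusted p = 0.000173). Both genes split the classes by a wide margin on every array. Otp, a homeobox factor, read 13.03, 13.22 and 12.83 in V1 and 7.99, 5.35 and 7.97 in dI4, so it was bright in dI4 replicates 1 and 3 as well. Foxd3, a forkhead factor of V1 neurons and of neural crest, had the same shape, at 10.31, 10.85 and 10.19 in V1 and 5.40, 2.21 and 5.44 in dI4. Foxp2 read 11.75, 12.38 and 11.40 in V1 and 7.81, 5.08 and 7.46 in dI4. For these 3 genes dI4 replicate 2 was the lowest array. The neural crest marker Sox10 was at the control level on all 6 arrays.

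Further V1 factors included Sp8, a zinc-finger factor (4.52 ± 0.22), Onecut1 (4.23 ± 0.20) and Onecut2 (3.45 ± 0.41), cut-homeobox factors of ventral neurons. The forkhead genes Foxp4 (3.90 ± 0.19) and Foxp1 (2.37 ± 0.24) and the nuclear receptor genes Nr4a2 (2.96 ± 0.55) and Esrrb were also called, with adjusted p between 0.000648 and 0.0413 for these 7 genes. Esrrb was at the control level in dI4 and at least 8.90-fold higher in V1. Members that went the other way were Nr2f2, the orphan receptor also called Coup-TFII, at -3.56 ± 0.36, and Prox1 at -1.42 ± 0.27 (adjusted p = 0.00734 and 0.045). Nr2f2 read 8.01, 9.46 and 8.67 in V1 and a nearly constant 12.29, 12.27 and 12.26 in dI4.

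**Figure D2:**
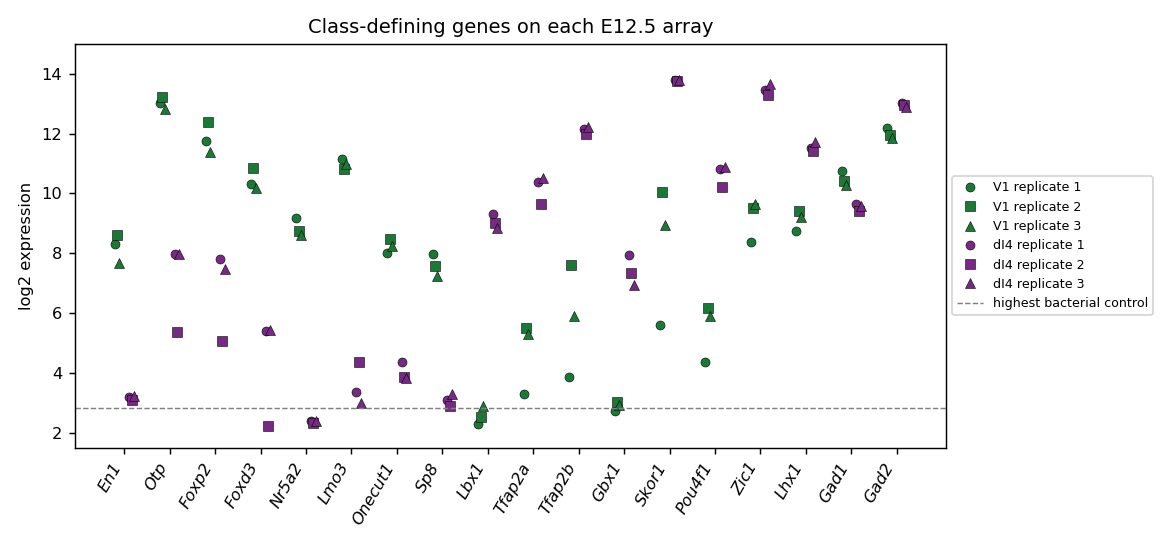
Log2 expression (y axis) of 18 class-defining genes (x axis) on each E12.5 array, V1 in green and dI4 in purple, one marker shape per replicate. The dashed line is the highest bacterial control reading, 2.82. En1 to Sp8 lie higher on every V1 array and Lbx1 to Lhx1 higher on every dI4 array, while Gad1 and Gad2 are bright in both classes.

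The dI4 list gave 6 genes lower in V1 and 1 higher among 11 tested, with a median of -3.70. Tfap2b, an AP-2 factor of dorsal inhibitory neurons, read 3.86, 7.61 and 5.90 in V1 and 12.17, 11.99 and 12.24 in dI4 (-6.34 ± 0.90, adjusted p = 0.0206). Its relative Tfap2a read 3.29, 5.50 and 5.31 in V1 and 10.37, 9.64 and 10.51 in dI4. Skor1, a corepressor that partners Lbx1, read 5.62, 10.04 and 8.93 in V1 and 13.80, 13.75 and 13.81 in dI4. In each of these 3 genes V1 replicate 1 was the lowest and V1 replicate 2 the highest V1 array. Skor1 was called with an adjusted p of 0.0471 and had one of 0.0512 without dI4 replicate 2. Gbx1 (-4.51 ± 0.26) and Sall3 (-3.28 ± 0.42) were also lower in V1. The exception was Neurod1, a bHLH factor of differentiating neurons, at 10.73, 10.14 and 10.82 in V1 against 6.69, 8.65 and 6.85 in dI4 (3.16 ± 0.55, adjusted p = 0.0356).

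Genes of inhibitory identity were bright in both classes but not at one level. Gad2, which makes GABA, read 12.19, 11.96 and 11.87 in V1 and 13.01, 12.96 and 12.91 in dI4 (-0.96 ± 0.12, adjusted p = 0.0139). Gad1, the other GABA-synthesizing enzyme, went the opposite way, at 10.76, 10.42 and 10.28 in V1 and 9.66, 9.41 and 9.58 in dI4 (0.93 ± 0.16, adjusted p = 0.0321). Lhx1, a LIM-homeobox factor shared by both classes, was lower in V1, at 8.75, 9.41 and 9.22 against 11.51, 11.40 and 11.72 (-2.41 ± 0.20, adjusted p = 0.00376). The vesicular GABA and glycine transporter Slc32a1 differed by 0.51 ± 0.22 and the glycine transporter Slc6a5 by -0.16 ± 0.15, and neither was called.

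Markers of other neuron classes were mixed. Pou4f1, a POU factor of dorsal excitatory and sensory neurons, read 4.35, 6.16 and 5.90 in V1 and 10.83, 10.22 and 10.87 in dI4 (-5.17 ± 0.50, adjusted p = 0.00652). Lmx1b, a factor of dorsal excitatory neurons, was 2.98, 2.96 and 3.50 in V1 and 5.91, 6.55 and 5.92 in dI4 (-2.98 ± 0.24, adjusted p = 0.00376). The vesicular glutamate transporter Slc17a6 read 2.90, 4.31 and 5.40 in V1 and 7.49, 9.57 and 7.38 in dI4, with an adjusted p of 0.0569. All dI4 arrays thus held RNA of these excitatory genes, although Tlx3 and Tlx1, which define dorsal glutamatergic neurons, were at the control level on all 6 arrays. The excitatory list also holds Foxd3, described above as a V1 factor, which raises the V1 mean of the list (V1 minus dI4 6.10). Over the 10 tested members, Foxd3 included, the mean level was 4.71 to 5.43 in V1 and 6.0 to 6.11 in dI4. Their part in the differences of other genes was not tested. Of 21 markers of other ventral classes, 15 were at the control level on all 6 arrays, including Gata3 of V2b and Mnx1 of motor neurons. The list's single called member was Bhlhe22, which V1 cells also express, at 11.67, 11.98 and 11.76 in V1 and 6.53, 9.37 and 6.90 in dI4 (4.2 ± 0.74, adjusted p = 0.0364).

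Many transcription factors of neural progenitors were called lower in V1. Of 28 on the array, 14 were tested, and 7 of these were called lower and none higher, with a median of -3.60. In 13 of the 14 every V1 array lay below every dI4 array, against 14.9% of all tested genes. Members dim in V1 could pass the filter through the dI4 arrays, so this is a description and not a test. Among members that did not pass, Pax6, Sox3 and Irx3 overlapped between classes and Id3 did not. Pax3, a paired-homeobox factor of dorsal progenitors, read 2.95, 4.33 and 3.24 in V1 and 9.25, 7.02 and 9.08 in dI4 (-4.94 ± 0.69, adjusted p = 0.0194). Msx3, a homeobox gene of the dorsal ventricular zone, read 3.44, 4.21 and 3.73 in V1 and 9.45, 6.83 and 8.5 in dI4. For both, dI4 replicate 2 lay between the other dI4 arrays and V1. The zinc-finger genes Zic1 (-4.29 ± 0.35), Zic2 (-3.67 ± 0.31) and Zic4 (-3.52 ± 0.22), which pattern the dorsal cord, were called lower in V1. Zic1 read 8.38, 9.50 and 9.65 in V1 and 13.46, 13.29 and 13.66 in dI4, with dI4 replicate 2 close to its partners. Hopx, a homeodomain-only protein, was lower as well (-4.00 ± 0.42). Sox2, which maintains neural progenitors of all positions, read 3.0, 6.11 and 4.91 in V1 and 9.87, 7.34 and 9.66 in dI4. Its adjusted p was 0.0715 with all arrays and 0.0239 without dI4 replicate 2. Without that array 13 of the 14 were called lower, where 5.63% of all tested genes were. It lay on the V1 side of its partners' mean for 13 of the 14, so the added calls are a description.

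Cell cycle genes were brightest on dI4 replicates 1 and 3. Of 40 genes on the array 28 were tested, 26 had a negative difference (median -1.61), and 2 were called lower in V1. Cenpf, a kinetochore protein of dividing cells, read 2.91, 3.03 and 2.83 in V1 and 9.45, 5.73 and 8.83 in dI4 (-5.08 ± 0.95, adjusted p = 0.0418). Kif11, the motor that separates spindle poles, read 3.96, 3.52 and 4.18 in V1 and 8.88, 6.42 and 8.82 in dI4 (-4.16 ± 0.69, adjusted p = 0.0319). Both were highest on dI4 replicates 1 and 3, lower on dI4 replicate 2 and lowest in V1. Mki67, the proliferation antigen, read 8.16, 8.5 and 7.59 in V1 and 11.62, 9.25 and 11.02 in dI4 and was not called (adjusted p = 0.0824). Kif20b, a kinesin of cytokinesis, read 3.05, 3.35 and 3.30 in V1 and 7.53, 4.01 and 6.92 in dI4 and was not called either (adjusted p = 0.13). On all 28 genes dI4 replicate 2 lay on the V1 side of its partners' mean, at the median 85.3% of the way. Other lists leaned the same way, such as 32 of 35 synaptic vesicle genes and 25 of 31 chromatin remodelling genes, against 6 of 23 V1 factors. The share over all tested genes was not computed. The partners' mean is subtracted on both sides of this comparison, so spread alone gives a lean toward V1. These counts therefore cannot show a trait of a list. Without dI4 replicate 2, 18 of the 28 were called lower and none higher, where 5.63% of all tested genes were called lower.

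Cell cycle genes are known to share a short element, the cell cycle genes homology region with the core TTTGAA, near their start sites. Promoters holding it are shown for the genes with the largest differences, among those whose V1 arrays all lay below dI4. Cenpe, with a larger difference (-3.17) than Kif20b and Mki67, was left out because its window holds no match. The windows run from 250 bases before to 50 bases after the RefSeq start, build GRCm38.p6, 5′ to 3′ in the direction of the gene. Capitals mark every TTTGAA or its reverse complement TTCAAA. Cenpf lies at chr1:189688037-189688336 on the minus strand, Kif11 at chr19:37376132-37376431 on the plus strand, Kif20b at chr19:34922108-34922407 on the plus strand and Mki67 at chr7:135716330-135716629 on the minus strand.
Cenpf: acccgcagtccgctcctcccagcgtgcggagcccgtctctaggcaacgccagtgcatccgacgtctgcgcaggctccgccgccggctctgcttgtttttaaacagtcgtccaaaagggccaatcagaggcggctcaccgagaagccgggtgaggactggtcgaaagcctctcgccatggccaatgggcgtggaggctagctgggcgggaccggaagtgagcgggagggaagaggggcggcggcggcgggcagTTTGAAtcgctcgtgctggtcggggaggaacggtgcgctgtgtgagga
Kif11: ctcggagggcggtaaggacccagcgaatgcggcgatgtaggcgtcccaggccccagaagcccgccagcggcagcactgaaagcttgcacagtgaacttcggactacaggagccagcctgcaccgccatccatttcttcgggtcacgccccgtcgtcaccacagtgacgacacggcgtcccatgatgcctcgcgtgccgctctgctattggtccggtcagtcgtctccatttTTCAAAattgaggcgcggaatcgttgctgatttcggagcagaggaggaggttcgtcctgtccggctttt
Kif20b: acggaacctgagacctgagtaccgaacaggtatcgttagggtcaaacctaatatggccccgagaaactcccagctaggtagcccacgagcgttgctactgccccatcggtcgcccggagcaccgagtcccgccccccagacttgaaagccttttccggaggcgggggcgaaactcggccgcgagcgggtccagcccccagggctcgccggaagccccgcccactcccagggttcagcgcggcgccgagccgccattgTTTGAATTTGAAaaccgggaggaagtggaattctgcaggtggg
Mki67: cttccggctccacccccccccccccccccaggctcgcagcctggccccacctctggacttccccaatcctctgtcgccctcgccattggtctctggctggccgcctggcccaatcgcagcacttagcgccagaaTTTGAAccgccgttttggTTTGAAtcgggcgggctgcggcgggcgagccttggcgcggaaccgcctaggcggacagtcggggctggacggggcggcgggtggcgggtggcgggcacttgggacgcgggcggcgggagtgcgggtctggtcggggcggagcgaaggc
The match begins at base 253 of the 300-base window in Cenpf and at base 232 in Kif11. Kif20b holds it at bases 258 and 264, back to back, and Mki67 at bases 135 and 153. On either strand, TTTGAA was held by 14 of the 32 cell cycle genes on the array that had a window (43.8%). It was held by 6 of the 13 whose V1 arrays all lay below dI4 (46.2%), 11.5% of the windows of tested genes, and 18.1% of all 27025 windows. Among called genes it was held by 11.2% of those higher and 14.7% of those lower in V1. A match is a description of these letters only.

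No gene of the cell cycle exit list was called higher in V1. All 9 tested had a negative difference, with a median of -0.55, and 1 was called lower, or 3 without dI4 replicate 2. Cdkn1b, an inhibitor of cyclin-dependent kinases, read 8.70, 8.81 and 8.55 in V1 and 10.05, 9.35 and 9.79 in dI4 (-1.04 ± 0.20, adjusted p = 0.0425). Insm1, a zinc-finger factor of newly formed neurons, read 6.85, 6.31 and 6.70 in V1 and 9.95, 7.04 and 9.45 in dI4, with an adjusted p of 0.16.

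In the Notch pathway, through which differentiating neighbours hold cells in the progenitor state, none of 18 tested genes was called by limma with all arrays, and 4 were called lower in V1 without dI4 replicate 2. The target gene Hes5 read 4.6, 6.98 and 6.46 in V1 and 10.69, 8.66 and 10.77 in dI4, a difference of -4.03 ± 0.83 with an adjusted p of 0.0528. Without dI4 replicate 2 its difference was -4.72 and its adjusted p 0.0161. The feedback inhibitor Nrarp read 5.69, 6.80 and 5.75 in V1 and 9.26, 7.57 and 9.50 in dI4, and the receptor Notch1 4.50, 5.34 and 4.76 in V1 and 8.47, 6.19 and 7.87 in dI4. These 3 genes did not overlap between classes. The ligand Dll1 did overlap, at 8.39, 8.88 and 8.60 in V1 and 10.01, 8.84 and 10.10 in dI4, as did the ligand Jag1, which differed by 0.22 ± 0.34. The median of the list was -0.35.

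Among 16 tested bHLH factors of neurogenesis and their partners, 2 were higher in V1 (Bhlhe22 and Neurod1) and 3 were lower, or 8 without dI4 replicate 2. Ebf2, which acts after cells leave the ventricular zone, read 4.69, 5.94 and 6.36 in V1 and 9.09, 10.25 and 8.95 in dI4 (-3.77 ± 0.54, adjusted p = 0.0215). Here dI4 replicate 2 was the highest array. The E-protein gene Tcf12 (-1.43 ± 0.15) and Id4, an inhibitor of bHLH factors (-0.92 ± 0.09), were lower in V1 by smaller and tightly spread amounts.

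Early neuronal factors outside the bHLH family included 3 genes lower in V1 among 20 tested, or 6 without dI4 replicate 2. Zeb2, a zinc-finger homeobox repressor, read 6.71, 7.93 and 6.68 in V1 and 10.50, 11.07 and 10.74 in dI4 (-3.66 ± 0.37, adjusted p = 0.00788). Bcl11a (-1.98 ± 0.28) and Bcl11b (-1.80 ± 0.30), zinc-finger factors of dorsal horn and cortical neurons, were lower as well. For all 3 genes, dI4 replicate 2 was the highest array. Myt1l, a factor that represses non-neuronal genes, was higher in V1 (1.58 ± 0.28, adjusted p = 0.0384). Sox11 and Sox4, SoxC factors of newborn neurons, were bright on every array (13.14 to 14.46) and were not called. General neuronal genes lay in narrow ranges: Elavl3 lay between 11.33 and 11.69, Map2 between 13.34 and 13.49 and Dcx between 13.92 and 14.29 over the 6 arrays. The 38 cytoskeletal genes tested included 4 that were higher in V1, with none lower: the neurofilament genes Nefl (1.21 ± 0.13) and Nefm (1.12 ± 0.12), Mapt (1.13 ± 0.20), which encodes tau, and the tubulin gene Tubb4a (0.79 ± 0.09). Of 23 neuronal RNA-binding proteins, the splicing regulator Nova1 was higher in V1 (2.14 ± 0.29, adjusted p = 0.0175) and Msi2, a Musashi protein of progenitors, lower (-0.97 ± 0.16, adjusted p = 0.0321). Over all tested genes 3.45% were called higher and 1.73% lower, and the RNA-binding list lay near those shares. Of the 38 cytoskeletal genes, 31 had a positive difference. In 18 of them all V1 arrays lay above all dI4 arrays, against 18.2% of all tested genes. Members could pass the filter through the V1 arrays, so this is a description and not a test. Without dI4 replicate 2, 9 cytoskeletal genes were higher and none lower, and 5 RNA-binding proteins were higher and 3 lower.

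**Figure D3:**
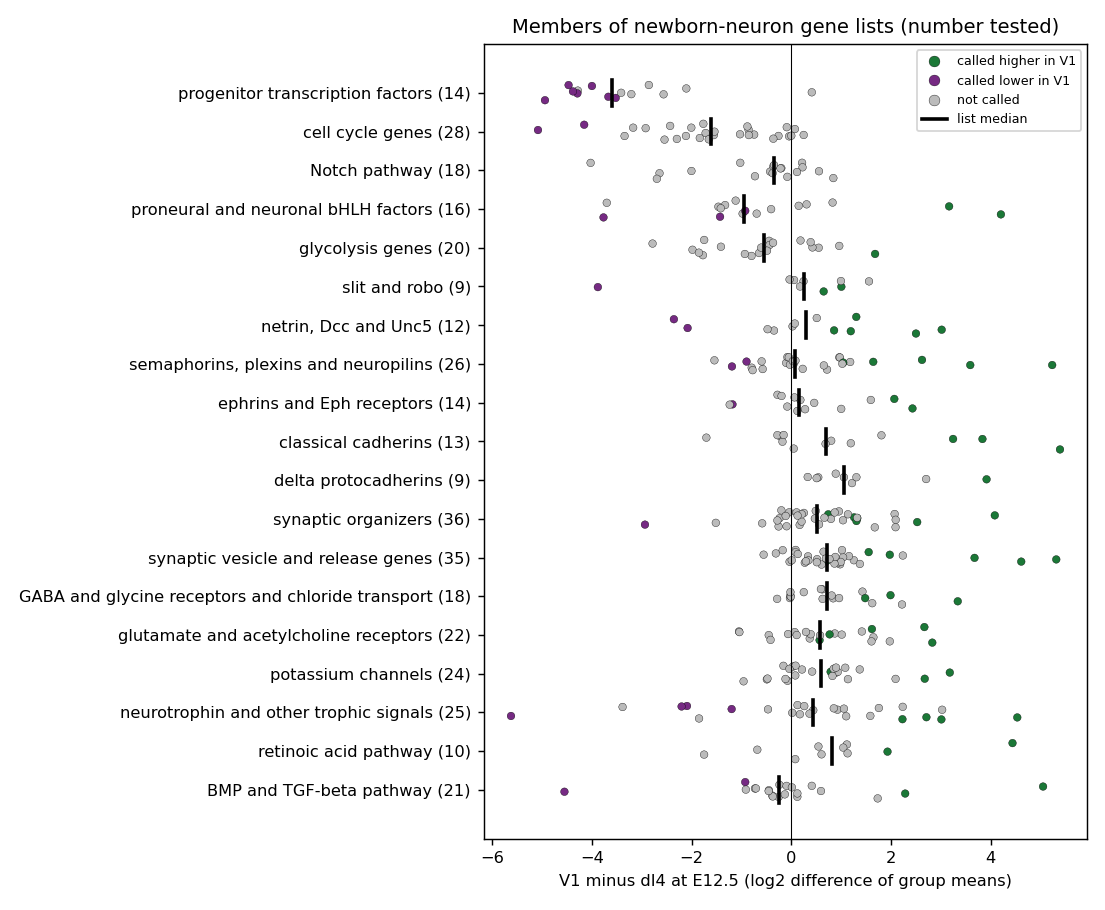
V1 minus dI4 difference (x axis, log2) of every tested member of 19 gene lists (y axis, number tested in brackets). Green points were called higher in V1, purple points lower, grey points were not called, and black bars are list medians. Progenitor factors have a median of -3.60 and delta protocadherins one of 1.05, with all 9 of the latter above 0.

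Axon guidance genes moved in both directions within each family, where 3.45% of all tested genes were called higher and 1.73% lower. In the Slit and Robo family, 2 of 9 tested genes were higher in V1 and 1 lower. Without dI4 replicate 2 the counts were 4 and 1. Robo3, which lets commissural axons reach the midline, read 2.80, 3.61 and 2.99 in V1 and 7.17, 6.6 and 7.27 in dI4 (-3.88 ± 0.28, adjusted p = 0.00235). Robo1, a Slit receptor that mediates repulsion, was bright in both classes, at 12.15, 12.04 and 12.21 in V1 and 11.52, 11.45 and 11.49 in dI4 (0.65 ± 0.09, adjusted p = 0.0225). The ligand Slit2 differed by 1.00 ± 0.20 (adjusted p = 0.0486). Thus the largest difference lay in the commissural receptor, and Robo2 overlapped between classes (0.06 ± 0.41).

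Of 12 netrin-related genes tested, 5 were higher in V1 and 2 lower. The ligand Ntn1 read 7.15, 7.36 and 7.18 in V1 and 9.89, 8.87 and 9.17 in dI4 (-2.08 ± 0.27, adjusted p = 0.0154). Unc5c, a receptor for netrin-driven repulsion, read 8.10, 8.07 and 8.06 in V1 and 10.10, 11.42 and 9.79 in dI4 (-2.36 ± 0.42, adjusted p = 0.0374). Its paralog Unc5a went the opposite way, at 5.65, 5.96 and 6.26 in V1 and 4.06, 3.40 and 2.92 in dI4 (2.50 ± 0.32, adjusted p = 0.015). Unc5d (1.30 ± 0.21), Neo1 (1.19 ± 0.24), a receptor of netrin and repulsive guidance molecules, Lrrc4c (0.86 ± 0.13), which encodes the netrin-G ligand NGL-1, and Dscam (3.02 ± 0.34) were higher in V1. The attractive receptor Dcc lay between 11.54 and 12.38 on all arrays and was not called.

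Among 26 semaphorins, plexins and neuropilins, 5 were higher in V1 and 2 lower. Sema3c, a secreted semaphorin, read 8.22, 7.77 and 7.86 in V1 and 2.99, 2.55 and 2.62 in dI4. The dI4 mean and 2 of its 3 arrays were at the control level, so it was at least 35.0-fold higher in V1 (adjusted p = 0.000239). Sema3a, the repellent that binds neuropilin 1, read 10.30, 9.32 and 9.52 in V1 and 6.79, 5.17 and 6.41 in dI4 (3.59 ± 0.48, adjusted p = 0.0168). Nrp2, a coreceptor for class 3 semaphorins, read 12.29, 12.41 and 12.06 in V1 and 9.80, 9.36 and 9.72 in dI4 (2.62 ± 0.16, adjusted p = 0.00139). Ligands and a receptor were thus both higher in V1. The other neuropilin, Nrp1, read 9.06, 9.49 and 9.28 in V1 and 10.38, 11.86 and 10.22 in dI4 and was not called (adjusted p = 0.117). Sema6a (1.64 ± 0.24) and Plxnb2 (1.04 ± 0.18) were higher, and the plexin coreceptors Plxna4 (-1.19 ± 0.17) and Plxna2 (-0.90 ± 0.18) lower in V1.

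Of 14 ephrins and Eph receptors tested, the receptors Epha5 (2.43 ± 0.21) and Ephb1 (2.07 ± 0.31) were higher in V1 and the ligand Efnb2 was lower (-1.18 ± 0.16), with 4 higher and 2 lower without dI4 replicate 2. Epha5 read 10.88, 11.00 and 10.89 in V1 and 8.52, 8.88 and 8.07 in dI4 (adjusted p = 0.00461). Epha4, which keeps spinal axons from crossing, read 11.54, 11.62 and 11.15 in V1 and 9.94, 10.42 and 9.17 in dI4 with an adjusted p of 0.055. In the migration list of 20 genes, Reln, the secreted glycoprotein reelin, was the one called gene (1.13 ± 0.19, adjusted p = 0.0309), where 3.45% of all tested genes were called higher. Without dI4 replicate 2 the list gave 3 higher and 2 lower. The chemokine receptors Cxcr4 (-3.13 ± 0.66) and Ackr3 (-3.19 ± 0.74) had adjusted p of 0.0558 and 0.0694, and both were called lower without dI4 replicate 2 (adjusted p = 0.0112 and 0.00441).

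Classical cadherins sort neurons by homophilic adhesion. Among 13 tested, catenins included, 3 were called higher in V1 and none lower, where 3.45% of all tested genes were called higher. Cdh7 read 9.48, 8.89 and 9.06 in V1 and 3.89, 4.90 and 2.47 in dI4 (5.39 ± 0.60, adjusted p = 0.0104). Cdh10 read 8.08, 7.78 and 8.02 in V1 and 4.58, 4.30 and 3.49 in dI4 (3.83 ± 0.29, adjusted p = 0.003). Cdh11 read 9.68, 9.24 and 8.93 in V1 and 5.67, 7.23 and 5.22 in dI4 (3.24 ± 0.54, adjusted p = 0.0319). No dI4 array reached the lowest V1 array in any of the 3, and without dI4 replicate 2 the list gave 4 higher and 1 lower. All 9 delta protocadherins tested had a positive difference, with a median of 1.05, where 5625 of all 10714 tested genes were above 0. Of these 1 was called higher, and 6 without dI4 replicate 2. Pcdh10 was the called member, at 9.91, 9.36 and 9.81 in V1 and 5.54, 7.37 and 4.41 in dI4 (3.92 ± 0.73, adjusted p = 0.0409). Pcdh11x read 10.47, 10.18 and 10.53 in V1 and 6.67, 9.02 and 7.37 in dI4, with an adjusted p of 0.06, and 0.00258 without dI4 replicate 2. Without that array 6 of the 9 were called higher.

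Of 29 immunoglobulin and contactin adhesion genes, 3 were higher in V1 and 2 lower, against 3.45% and 1.73% of all tested genes. The counts were 13 and 3 without dI4 replicate 2. Dscam, which mediates self-avoidance of neurites, read 7.30, 6.49 and 7.80 in V1 and 4.04, 4.38 and 4.11 in dI4 (adjusted p = 0.0104). Its paralog Dscaml1 was the reverse, at 6.0, 6.02 and 6.21 in V1 and 8.63, 9.21 and 7.73 in dI4 (-2.45 ± 0.37, adjusted p = 0.0241). Cntn2, the contactin TAG-1 found on commissural axons, read 4.30, 5.15 and 4.96 in V1 and 8.02, 7.67 and 7.77 in dI4 (-3.02 ± 0.24, adjusted p = 0.00376). Within this family, then, close relatives took opposite directions. Cntn6 (1.67 ± 0.33) and Cntnap2 (0.62 ± 0.11) were higher in V1.

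Among all 555 called genes 66.7% were higher in V1, the background for the lists that follow. Of 35 tested genes of the synaptic vesicle and its release, 6 were higher and none lower, and 31 had a positive difference (median 0.72). In 21 the V1 arrays all exceeded the dI4 arrays, against 18.2% of all tested genes. Members dim in dI4 could pass the filter through the V1 arrays, so this is a description and not a test. Synpr, the vesicle protein synaptoporin, read 10.56, 10.11 and 10.04 in V1 and 4.78, 5.17 and 4.81 in dI4 (5.31 ± 0.19, adjusted p = 0.000239). Sv2b, a vesicle glycoprotein, read 8.64, 8.46 and 8.54 in V1 and 3.35, 4.04 and 4.42 in dI4 (4.61 ± 0.28, adjusted p = 0.0013). Syt13, a synaptotagmin, read 6.89, 5.33 and 7.10 in V1 and was at the control level in dI4, so it was at least 12.3-fold higher (adjusted p = 0.0149). Cplx1 (1.97 ± 0.34) and Syt7 (1.55 ± 0.22), which act in vesicle fusion, and Syn1, a synapsin (0.72 ± 0.14), made up the 6. Syt1 and Snap25, core genes of release, overlapped between classes and were not called (0.09 ± 0.14 and 0.13 ± 0.16). The mean of the list was 8.35 to 8.64 in V1, 7.41 and 7.31 on dI4 replicates 1 and 3, and 7.92 on dI4 replicate 2. Without dI4 replicate 2, 18 of the 35 were called higher and none lower, where 9.08% of all tested genes were called higher.

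Of 36 synaptic organizers, 6 were higher in V1 and 1 lower. With dI4 replicate 2 left out, 12 were higher and 1 lower. The cerebellins, secreted bridges between neurexins and postsynaptic receptors, gave Cbln2 at 9.82, 9.50 and 9.59 in V1 against 5.14, 7.20 and 4.33 in dI4 (4.08 ± 0.71, adjusted p = 0.0355). Cbln4 read 10.43, 9.09 and 10.49 in V1 and 7.45, 7.80 and 7.19 in dI4 (2.52 ± 0.41, adjusted p = 0.0307). Nlgn1, a neuroligin (1.32 ± 0.23), Lrrtm2, a neurexin ligand (1.26 ± 0.14), C1ql3 (1.31 ± 0.22) and the latrophilin gene Adgrl1 (0.74 ± 0.15) were also higher. The teneurin gene Tenm3 was lower in V1, at 8.39, 7.65 and 8.68 against 10.61, 11.46 and 11.45 (-2.94 ± 0.35, adjusted p = 0.0131).

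Neurotransmitter receptors and chloride transporters were read next. For these and the channel, calcium-binding, peptide and trophic lists, the background is 3.45% of all tested genes called higher and 1.73% lower. For GABA and glycine receptors and chloride transport, 3 of 18 were higher and none lower, and 9 were higher without dI4 replicate 2. Gabra5, an alpha subunit of the GABA-A receptor, read 8.08, 6.54 and 7.43 in V1 and 3.35, 4.95 and 3.74 in dI4 (3.34 ± 0.55, adjusted p = 0.0309), and Gabrb2, a beta subunit, differed by 1.48 ± 0.24. Slc12a5, the chloride exporter KCC2 that makes GABA inhibitory as neurons mature, read 10.20, 10.10 and 10.48 in V1 and 7.99, 8.83 and 7.99 in dI4 (1.99 ± 0.26, adjusted p = 0.0167). The chloride importer Slc12a2 differed by 0.59 ± 0.19 and was not called. Of 22 glutamate and acetylcholine receptor genes, 5 were higher and none lower, and 9 were higher without that array. Grin2d, an NMDA receptor subunit, read 9.35, 8.30 and 9.10 in V1 and 6.56, 6.14 and 5.56 in dI4 (2.83 ± 0.36, adjusted p = 0.0151). The kainate receptor subunit Grik1 (2.67 ± 0.48), the AMPA receptor subunit Gria4 (1.62 ± 0.20) and the nicotinic subunits Chrnb2 (0.77 ± 0.13) and Chrna3 (0.57 ± 0.11) were the others.

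In the potassium channel list, 3 of 24 tested members were higher in V1, with none lower, and 6 were higher without dI4 replicate 2. Kcnd3, an A-type channel, read 9.24, 9.46 and 9.17 in V1 and 5.23, 7.32 and 5.79 in dI4 (3.18 ± 0.53, adjusted p = 0.0319). Kcnip1, which encodes a protein that binds A-type channels, differed by 2.68 ± 0.49 (adjusted p = 0.0404), so a channel and its auxiliary subunit were both higher. Kcna6 was dim in V1 (3.32 to 3.79) and at the control level in dI4, at least 1.59-fold higher, and was not called without dI4 replicate 2. Among 22 sodium, calcium and HCN channel genes, 3 were higher and 1 lower, and 9 and 2 without that array. Cacna2d3 (1.76 ± 0.21), Cacng2 (1.15 ± 0.19) and Scn9a (1.05 ± 0.18) were higher. Cacna2d1, another alpha2delta subunit and the target of gabapentin, was lower, at 3.90, 4.64 and 4.54 in V1 and 7.07, 8.56 and 6.94 in dI4 (-3.16 ± 0.47, adjusted p = 0.0237). The alpha2delta paralogs therefore took opposite directions.

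Of 11 calcium-binding proteins 3 were higher in V1 and none lower. Calb1, the calbindin of Renshaw cells, read 6.89, 7.01 and 6.48 in V1 and was at the control level in dI4, at least 15.7-fold higher (adjusted p = 0.000334). Another probe set of Calb1 above the filter pointed the opposite way. Pcp4, a calmodulin regulator, read 11.51, 10.39 and 11.35 in V1 and 4.47, 6.66 and 5.07 in dI4 (5.68 ± 0.61, adjusted p = 0.00931). Hpca, the neuronal calcium sensor hippocalcin, was 4.22 ± 0.81 higher (adjusted p = 0.0447). Calb2 and Pvalb, markers of more mature interneurons, were at the control level on all 6 arrays.

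Of 12 neuropeptide and peptide receptor genes tested, 2 were higher in V1 and 1 lower, and without dI4 replicate 2 the counts were 4 and 3. Npy, neuropeptide Y of dorsal horn inhibitory neurons, read 6.16, 6.67 and 7.34 in V1 and 10.58, 11.32 and 10.35 in dI4 (-4.03 ± 0.38, adjusted p = 0.00558). Pnoc, the precursor of nociceptin, read 9.02, 9.0 and 9.35 in V1 and 6.54, 6.10 and 6.22 in dI4 (2.84 ± 0.17, adjusted p = 0.00123). Each gene was detected in both classes, with no overlap. Nxph1, a neurexin-binding secreted protein, was 1.95 ± 0.38 higher in V1. Penk and Pdyn, opioid precursors of dorsal horn neurons, were at the control level on all arrays. Of 37 peptide and receptor genes 17 were at that level on all 6 arrays.

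Trophic signals gave 4 genes higher and 4 lower in V1 among 25 tested, and 9 and 6 without dI4 replicate 2. Ret, the receptor tyrosine kinase of GDNF-family ligands, read 8.37, 8.68 and 8.07 in V1 and 3.43, 4.72 and 3.38 in dI4 (4.53 ± 0.40, adjusted p = 0.00461). Ngfr, the low-affinity neurotrophin receptor, read 9.19, 9.90 and 9.45 in V1 and 7.07, 5.34 and 7.10 in dI4 (3.01 ± 0.52, adjusted p = 0.0344). Erbb4, a neuregulin receptor (2.71 ± 0.34), and Met, the hepatocyte growth factor receptor (2.23 ± 0.20), were also higher, so all 4 were receptors. Nrn1, the membrane-anchored neuritin, was lower, at 3.0, 3.87 and 4.09 in V1 and 9.31, 9.54 and 8.98 in dI4 (-5.62 ± 0.31, adjusted p = 0.00114). Kit, the stem cell factor receptor, read 5.84, 5.87 and 5.61 in V1 and 7.60, 8.40 and 7.92 in dI4 (-2.20 ± 0.22, adjusted p = 0.00711). Igfbpl1 (-2.09 ± 0.25) and the heparin-binding factor Ptn (-1.20 ± 0.22) were the remaining genes lower in V1.

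Hox genes, whose clustered order follows position along the body axis, differed by paralog number and by cluster. Of 11 tested genes of paralogs 1 to 5, 3 were lower in V1 and none higher, or 6 lower without dI4 replicate 2. Of 9 in paralogs 6 to 9, 4 were higher and 2 lower, and of 4 in paralogs 10 to 13, 3 were higher and none lower. Over all tested genes 3.45% were called higher and 1.73% lower. Hoxd10 (Entrez gene 15430), active at lumbar levels, read 12.35, 12.49 and 12.94 in V1 and 2.89, 8.0 and 2.54 in dI4, a difference of 8.12 ± 1.46 (adjusted p = 0.0384). Without dI4 replicate 2, which lay well above its partners, the dI4 mean was at the control level and the difference was at least 9.77. Hoxc10 read 12.45, 12.75 and 12.65 in V1 and 7.83, 9.56 and 7.44 in dI4 (4.34 ± 0.55, adjusted p = 0.0148), and Hoxa10 10.61, 11.56 and 11.30 in V1 and 8.71, 9.59 and 8.96 in dI4 (2.07 ± 0.33, adjusted p = 0.0283). Again dI4 replicate 2 was the highest dI4 array in both. Hoxd9 (3.42 ± 0.44), Hoxc9 (1.48 ± 0.17), Hoxd8 (1.42 ± 0.28) and Hoxc8 (1.17 ± 0.17) were higher in V1 by less.

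Every called HoxB gene was lower in V1, whatever its paralog number. Hoxb9 read 6.52, 7.17 and 6.34 in V1 and 10.68, 10.60 and 10.29 in dI4 (-3.84 ± 0.24, adjusted p = 0.00149), opposite in sign to Hoxc9 and Hoxd9. Hoxb4 (-2.59 ± 0.33), Hoxb6 (-2.24 ± 0.23), Hoxb5 (-1.98 ± 0.22) and Hoxb3 (-1.52 ± 0.18) were lower too. For Hoxb3 and Hoxb9, dI4 replicate 2 lay between its dI4 partners. Over the 11 tested genes of paralogs 1 to 5, that array lay on the V1 side of its partners' mean on all 11, for Hoxb3 only just. The lean built into this measure, described for the cell cycle genes, applies here too. The median shift was 108% of the distance from that mean to the V1 mean. Such a share is unstable where the classes hardly differ, as for Hoxc5 (0.05), Hoxd3 (-0.12) and Hoxc4 (-0.18). Among the genes that differed more, Hoxa2 read 5.40, 6.11 and 5.77 in V1 and 8.05, 6.05 and 8.26 in dI4. It was not called (adjusted p = 0.17). Hoxa9 overlapped between classes (-0.18 ± 0.26). The labels do not state which levels of the cord the sorted cells of each class came from. None of 16 tested Hox cofactors and chromatin regulators was called by limma.

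**Figure D4:**
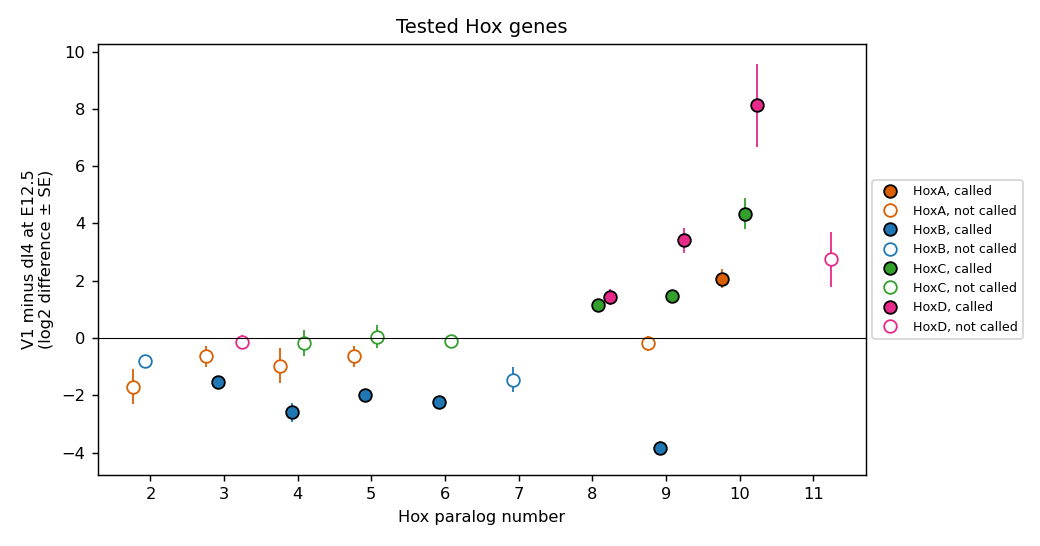
V1 minus dI4 difference (y axis, log2, bars are the standard error) of the 24 tested Hox genes against paralog number (x axis), coloured by cluster, with filled points called at an adjusted p under 0.05. Filled HoxB points lie between -3.84 and -1.52, and filled points of the other clusters lie above 0, up to 8.12 for Hoxd10.

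Among signalling pathways that pattern the cord, calls with all arrays lay in the retinoic acid and the BMP and TGF-beta lists. Over all tested genes 3.45% were called higher and 1.73% lower. Retinoic acid drives differentiation and posterior identity, and 2 of its 10 tested genes were higher in V1 with none lower, or 2 and 2 without dI4 replicate 2. Aldh1a2, the enzyme that makes retinoic acid, read 8.01, 7.22 and 8.34 in V1 and 2.87, 3.35 and 4.04 in dI4 (4.44 ± 0.40, adjusted p = 0.00504). The receptor gene Rarb differed by -1.75 ± 0.36 with an adjusted p of 0.0548. For the enzyme the classes did not overlap. In the BMP and TGF-beta pathway, 2 of 21 tested genes were higher and 2 lower, and 4 and 3 without that array. Smad3, which carries TGF-beta and activin signals to the nucleus, read 4.51, 4.56 and 4.47 in V1 and 9.32, 8.54 and 9.34 in dI4 (-4.55 ± 0.23, adjusted p = 0.000761). The ligand Tgfb2 went the other way, at 8.80, 7.68 and 9.32 in V1 and 2.83, 5.03 and 2.79 in dI4 (5.05 ± 0.73, adjusted p = 0.0222). The BMP antagonist Grem1 was 2.28 ± 0.20 higher in V1 (adjusted p = 0.00455). None of 21 Wnt, 22 sonic hedgehog and FGF, 31 chromatin remodelling (BAF) and 21 cholesterol synthesis genes was called by limma, and without dI4 replicate 2 the calls in these 4 lists were 3, 1, 1 and 0 higher and 3, 4, 4 and 0 lower.

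Glycolysis and hypoxia genes separated dI4 replicates 1 and 3 from all other arrays. With all arrays 1 of 20 tested genes was called, Eno2, the neuronal enolase, which was higher in V1 (1.68 ± 0.25, adjusted p = 0.0235). Pdk1, which diverts pyruvate from mitochondria, read 5.47, 5.59 and 4.44 in V1 and 9.21, 4.55 and 10.10 in dI4 (adjusted p = 0.298). The glucose transporter Slc2a1 read 9.43, 9.29 and 8.85 in V1 and 12.18, 9.21 and 12.13 in dI4, and the lactate dehydrogenase Ldha 8.61, 7.77 and 8.19 in V1 and 11.04, 7.91 and 10.87 in dI4. For these 3 genes dI4 replicate 2 lay within the V1 range. Without it 14 of the 20 were called lower in V1 and 2 higher, with Pdk1 at -4.48 and an adjusted p of 0.00583. This pattern therefore rests on 2 of the 3 dI4 arrays.

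Several of the most different genes belong to none of these families. Higher in V1 were Slc6a17, a vesicular amino acid transporter at the control level in dI4 and at least 37.7-fold higher in V1, and Npnt, the matrix protein nephronectin, whose dI4 mean was at that level (at least 34.2-fold higher). The uncharacterized transcript A930009L07Rik read 9.81, 9.99 and 10.06 in V1 and 3.28, 3.93 and 4.26 in dI4 (6.13 ± 0.26, adjusted p = 0.000485). Lower in V1 were Vgll3, a cofactor of TEAD factors, at 4.74, 4.58 and 3.23 in V1 and 9.43, 9.35 and 9.14 in dI4, and Rgs16, a regulator of G protein signalling (-4.86 ± 0.30). Pdpn, the membrane glycoprotein podoplanin, read 3.66, 4.26 and 4.09 in V1 and 9.77, 7.40 and 9.54 in dI4, and the transcript C130021I20Rik differed by -4.57 ± 0.75. All 7 had adjusted p values of at most 0.0312.

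The same genes were read at birth (P0) and at postnatal day 5 (P5) as a description, since those arrays come from other animals and were not used in the calls. Of the 370 genes higher at E12.5, the V1 arrays all exceeded the dI4 arrays for 288 at P0 (77.8%) and 259 at P5 (70%), where 29.7% and 32.3% of all tested genes did. Of the 185 lower, every V1 array lay below for 144 at P0 (77.8%) and 122 at P5 (65.9%), where 21.7% and 25.7% of tested genes did. The class factors En1, Otp, Foxd3 and Nr5a2 differed by 6.21 to 9.88 at P0 and by 7.12 to 9.81 at P5. Other early differences were smaller later. In the order of age, Robo3 differed by -3.88, -0.69 and -0.20, Synpr by 5.31, 0.84 and 1.38, Ret by 4.53, 0.65 and 1.66, and Hoxd10 by 8.12, 1.10 and 2.60. Since each age has its own value distribution, sizes are not comparable between ages as measurements of change. Vxn, called higher in V1 at E12.5, where it read 6.72, 7.19 and 7.31 and dI4 was at the control level, had all V1 arrays below dI4 at P5 (-2.40), and was singled out after its values were seen.

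**Figure D5:**
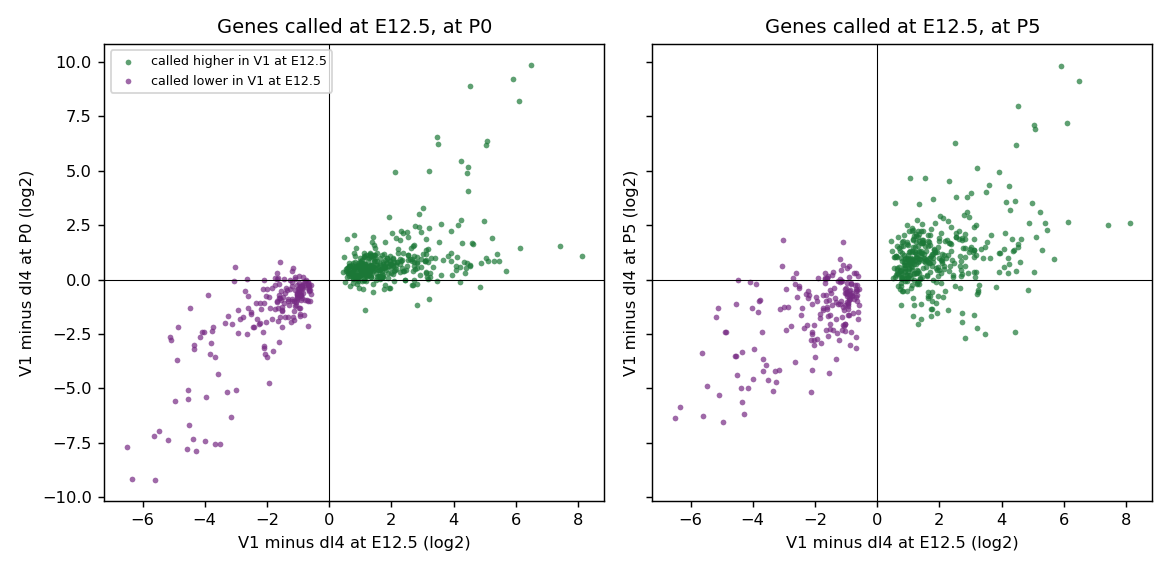
V1 minus dI4 difference (log2) at P0 (left, y axis) and P5 (right, y axis) against that at E12.5 (x axis) for the 555 genes called at E12.5, green for higher in V1 and purple for lower. Most green points lie above 0 and most purple points below. At P0, 288 of 370 genes called higher had all V1 arrays above all dI4 arrays.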

How the data were processed

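Sorted V1 and dI4 interneurons were profiled on Affymetrix arrays. The deposited log2 expression values had been background corrected and normalized by the authors, and Partek 6.6, RMA and GCRMA are named without role or order, per the submitters' processing notes. The arrays hold 45101 probe sets, and 37823 that name a single gene were kept. Those left out were 64 controls, 5815 lacking a symbol and 1399 with more than one gene. Symbols were updated by Entrez identifier (34668 matched, 3821 changed), and the probe set with the highest mean over the 6 arrays stood for each of 20674 genes. The signed fold score and the unadjusted p-value that the authors deposited beside them, per the file headers, were not used.

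V1 minus dI4 at E12.5 was fitted with limma 3.58.1 in R 4.3.3 (lmFit, eBayes; residual df 4, prior df 1.91) on the 10714 genes above the array median on at least 3 arrays, with Benjamini-Hochberg adjustment over all of them. The procedure was tested on simulated data with independent normal noise of the same spread in both classes. An outlying array such as dI4 replicate 2 was not simulated. The 3 arrays per class limit the precision. Named genes are En1 and Ptf1a, the 12 called genes with the largest non-overlapping difference in each direction, and members of 48 gene lists. Members and lists were chosen with earlier results of these data known. V1 replicates 1 and 3 at P0 were nearly identical and were averaged. Promoter sequences are from RefSeq (GRCm38.p6), 1 window per gene, leaving out chromosomes not used here. Some list members are counted but not reported here by name.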

Additional observations from a re-analysis of the deposited data

Results flagged for a closer look

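At P5, 31 of the 370 genes called higher at E12.5 (8.38%) had every V1 array below every dI4 array, as did 25.7% of all tested genes, and 11 of the 185 called lower (5.95%) had every V1 array above, as did 32.3%. Given here are the genes of the lists that turned this way with a difference of at least 1 on the log2 scale at both ages. The difference between the ages was not tested, and the ages carry different value distributions. C1ql3, a secreted synaptic organizer, differed by 1.31 at E12.5 and -2.03 at P5. Cntn2, the axonal contactin TAG-1, differed by -3.02 and 1.84. Hoxd8 differed by 1.42 and -1.14. Sparcl1, a matrix protein of glia and some neurons, differed by 3.22 and -2.22.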

How the results depend on the processing

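With all 6 arrays, 370 genes were higher and 185 lower in V1. Testing every gene without a filter gave 127 and 59, sharing the spread over all groups of the series gave 996 and 409, and leaving out each array in turn gave 92 to 973 and 51 to 603. Arrays with the same replicate number deviated from their class means with correlations of -0.09, -0.21 and -0.11. With 3 arrays per class these values cannot show whether the numbers pair the arrays. A fit with a replicate block gave 69 and 34 calls. A filter on the mean, another choice of probe set, centring, quantile normalization, an intensity trend and a 2-fold minimum kept both counts within 1.5 times, from 297 to 432 and from 139 to 214. The split of higher against lower calls moved little with scaling, from 390 and 171 after centring to 373 and 209 after quantile normalization. The 555 called genes kept their sign under every alternative that could be computed, except 2 of 547 when all probe sets were averaged and 2 of 540 when unique probe sets were preferred. Slitrk4, at -0.09 and not called with all arrays, lay between -0.40 and 0.51 when each array was left out in turn, and the 0.51 without dI4 replicate 2 was called (adjusted p = 0.0469 by limma). The cause was not tested. Of the called genes, 295 had another probe set above the filter, and for 19 of these some probe set pointed the opposite way.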

Other observations

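Among 26 tested imprinted genes, Peg3 (1.25 ± 0.24) and Nap1l5 (1.58 ± 0.25) were called higher in V1 by limma (adjusted p = 0.0425 and 0.0264), and without dI4 replicate 2 the list gave 6 higher and 2 lower. Igf2 read 10.83, 8.62 and 6.18 in V1 and 5.17, 5.68 and 5.71 in dI4, and H19 read 9.16, 7.58 and 6.61 in V1 and 6.31, 4.80 and 5.88 in dI4. Neither was called, and both were highest on V1 replicate 1, the array with collagen RNA. Mdm2, which restrains p53, was the one called gene of 17 in cell death and survival, lower in V1 (-1.11 ± 0.20, adjusted p = 0.037), and without dI4 replicate 2 that list gave 2 higher and 1 lower. Over all tested genes 3.45% were called higher and 1.73% lower with all arrays.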
